A study of Homo sapiens with 12 samples.

Results

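U87 cells, an established human glioblastoma line, were compared after 24 h with temozolomide plus Y15 and after 24 h with temozolomide. The difference is what Y15 added on top of the alkylating drug. The sample titles give no order of addition. The comparison rests on 4 of the 12 arrays of the series, chosen by their titles. Of the 47323 probes on the Illumina bead array, 16919 were detected on at least 2 of the 4, and the test used the 19354 detected on at least 2 of the 12. The U87 groups were temozolomide with 10 µM Y15, temozolomide without Y15, 10 µM Y15 without temozolomide, and untreated cells, with 2 arrays in each; the remaining 4 arrays held DBTRG, another glioblastoma line, with and without Y15, and entered the normalisation, the filter on dim probes and the estimate of the spread of each gene. The sample titles give the temozolomide dose as 20 µM and the design text of the series as 100 µM, so the dose is not settled. The extraction protocol in the labels speaks of frozen tissue although every sample is labelled a cell line. Nothing states that the 2 arrays of a group came from separate cultures, so the p-values measure the spread between arrays, which may be technical.

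Focal adhesion kinase (FAK, the product of PTK2) is a tyrosine kinase recruited to the sites where integrins bind the extracellular matrix, and it passes signals for survival, migration and growth through SRC family kinases. Y15 is a small-molecule FAK inhibitor directed at the main autophosphorylation site of the kinase. Temozolomide methylates DNA, and the lesion it makes at the oxygen of guanine is removed by the repair protein MGMT; mispairing of lesions that remain leads to DNA breaks, p53 activity and cell cycle arrest in cells with working p53.

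The 4 arrays compared were alike in detection and replicate correlation. The temozolomide plus Y15 arrays detected 16143 and 16756 probes and correlated at Pearson's r = 0.9937, and the temozolomide arrays detected 16889 and 16549 probes with r = 0.993. Of 10 astrocyte and glioma markers, 6 were detected on all 4 arrays, among them VIM (vimentin, an intermediate filament of mesenchymal cells) and SLC1A3, a glutamate transporter of astrocytes, and GFAP, S100B and AQP4 were detected on none. PTPRC, ITGAM and TYROBP of the 7 microglial markers and CDH5, VWF, KDR and CLDN5 of the 6 endothelial markers were likewise detected on none of the 4 arrays. Of the same lists AIF1, CD68, CSF1R and TEK were detected on all 4 and CD14 and PECAM1 on 3, as were LUM and PDGFRB of the fibroblast and pericyte markers and CD2 of the lymphocyte markers on all 4. MGMT was detected on 0 of the 12 arrays and did not enter the test. In bulk RNA, fewer cells with a transcript and less transcript per cell cannot be told apart.

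Y15 changed the profile of temozolomide-treated cells broadly and unevenly. Of 11423 genes tested, 2898 (25.4%) passed an adjusted p of 0.05, 1244 of them higher (10.9%) and 1654 lower (14.5%) with both drugs than with temozolomide, while the median change over all genes was -0.05 on the log2 scale. The list counts below that come from this fit are to be read beside those shares, 10.9% higher and 14.5% lower. List counts given for fits with 1 array left out or with another setting have other shares over all genes, and these 2 do not apply to them. Centred on the median of all probes, for example, 722 of the 11423 genes were higher and 2192 lower. Changes of at least 2-fold were mostly rises: 324 genes were higher and 135 lower by that much. At 4-fold or more, 71 genes were higher and 0 were lower. The count of called genes was 1395 without replicate 1 of temozolomide, 1683 without replicate 2 of temozolomide, 1663 without replicate 1 of the combination and 1268 without replicate 2 of the combination. Each of these fits had 1 array fewer.

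The 12 largest rises were led by small structured RNAs that are not made into protein. SNORD3A, a gene for the U3 small nucleolar RNA, which guides the first cuts of the ribosomal RNA precursor, gave a normalised log2 signal of 12.58 and 12.85 with temozolomide plus Y15, against 6.70 and 6.06 with temozolomide. The groups lay far apart, and the change of 6.33 ± 0.50 (SE, n = 2 arrays per group here and below) was an 80.7-fold rise in signal (adjusted p = 2.8e-05, limma). Whether the array signal follows the amount of such small RNAs in the cell was not tested, here or for those below. SNORD3C and SNORD3D, near-identical U3 copies whose probes can share signal, rose by 6.61 ± 0.62 and 6.34 ± 0.64. SNORD3C was detected on 1 of 2 temozolomide arrays. RNA5S9, a 5S ribosomal RNA gene, had signals of 12.68 and 12.80 with both drugs, against 6.58 and 6.52 with temozolomide, a rise of 6.19 ± 0.57. RN7SK, the RNA that holds the elongation kinase P-TEFb inactive, had 11.98 and 12.12 with both drugs, against 7.89 and 7.18 with temozolomide, a rise of 4.52 ± 0.27 (adjusted p = 4.38e-06, limma). Its other kept probe rose by 6.29 ± 0.39, from temozolomide values of 4.78 and 4.92. Undetected probes can read that low, so the size of this rise is uncertain. Of the 7 other members of the 7SK and P-TEFb list, all of them protein-coding, 0 were called, and their changes lay between -0.40 and 0.45.

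FOSB, FOS and RASD1, genes of early signalling, stood beside the small RNAs at the top. FOSB, an AP-1 subunit switched on within minutes of many stimuli, gave 10.03 and 10.06 with both drugs and was detected on neither temozolomide array, where its values were 4.98 and 4.81. Its rise was at least 27.2-fold, the combination mean being set against the lowest detected signal of each temozolomide array (adjusted p = 3.86e-06, limma). FOS, its close relative, gave 9.27 and 9.65 with both drugs, against 5.35 and 4.83 with temozolomide, where 1 of 2 arrays detected it. RASD1, a small RAS-like GTPase, gave 9.01 and 9.25 with both drugs, against 5.32 and 5.08 with temozolomide, again with 1 of 2 temozolomide arrays detecting it. No array of one group came near those of the other for any of the 3.

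**Figure D1:**
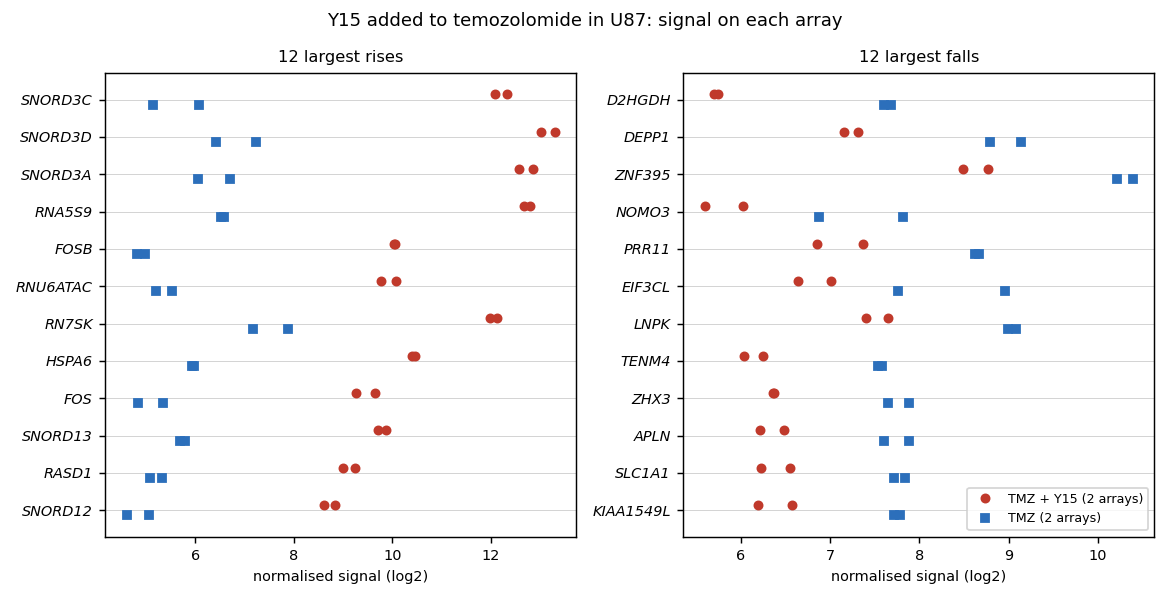
Normalised log2 signal (horizontal axes) of the 12 largest called rises (left) and the 12 largest called falls (right) on each array. Red circles are the 2 temozolomide plus Y15 arrays and blue squares the 2 temozolomide arrays; the rises span 3.90 to 6.61 log2 units between group means and the falls 1.37 to 1.92.

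Many of the tested small RNAs were higher with both drugs. Of the 279 small nucleolar RNAs on the array, which guide chemical modification and processing of other RNAs, 101 entered the test, and 78 were called higher and 0 lower with both drugs than with temozolomide, with a median change of 1.03. The count was 49 without replicate 2 of the combination. Of the 101, 51 were detected on no temozolomide array and could only have entered through other arrays, those with Y15 among them, so the count is not one over all small nucleolar RNAs. SNORD13 had 9.72 and 9.88 with both drugs, against 5.68 and 5.78 with temozolomide, a rise of 4.07 ± 0.21. SNORD12 was detected on neither temozolomide array and was at least 10.9-fold higher with both drugs, and SNORD95 at least 6.76-fold.

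Of the 14 genes annotated as small nuclear RNAs, 13 were called higher and 1 lower, with a median of 2.92. They are the RNA cores of the spliceosome, together with RN7SK and SNAR-A1. RNU1-1, a U1 gene, had 10.70 and 10.87 with both drugs, against 7.79 and 7.20 with temozolomide, a rise of 3.30 ± 0.29 (adjusted p = 5.21e-05, limma). RNU6ATAC, of the minor spliceosome, rose by 4.56 ± 0.57, from a probe that 1 of 2 temozolomide arrays detected. SNAR-A1, a small cytoplasmic RNA, was the member that moved the other way, with 11.56 and 11.21 with both drugs, against 13.02 and 12.38 with temozolomide, and fell by 1.31 ± 0.28 (adjusted p = 0.00859, limma). In the same arrays GAPDH, a glycolytic enzyme, changed by -0.01 ± 0.11. Arrays had been quantile normalised, so this value is not a check on loading. Before normalisation the median signal was 103.6 and 104 with both drugs, against 123.2 and 118.8 with temozolomide. Of 74 cytosolic ribosomal protein genes 5 were higher and 1 lower. That 5 was 2 to 4 with 1 array left out, 14 centred on the median of kept probes, 11 with the deposited log2 values and 2 centred on the median of all probes.

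**Figure D2:**
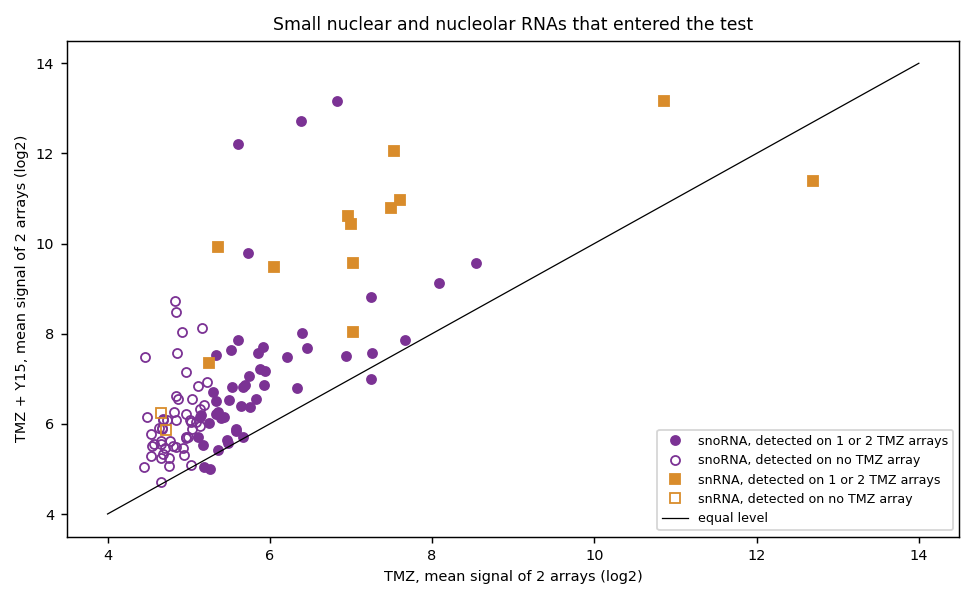
Mean log2 signal of each tested small nucleolar RNA (purple circles) and small nuclear RNA (orange squares) with temozolomide plus Y15 (vertical axis) and temozolomide (horizontal axis), 2 arrays each; open symbols were detected on no temozolomide array. Most points lie above the line of equal level, and SNAR-A1 is the square below it.

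Genes that the transcription factor ATF4 activates when amino acids run short or proteins misfold were mostly higher with both drugs. ATF4 is made when the integrated stress response slows general translation, and it switches on amino acid import and synthesis. Of 27 such genes tested, 21 were called higher and 1 lower, beside 10.9% and 14.5% of all genes. The median change was 1.45 against -0.05 over all genes. Of the 27, 4 were detected on no temozolomide array and 0 on no combination array, beside 1045 and 1119 of the 11423 genes tested. Those 4 could only have entered the test through other arrays, those with Y15 among them. All 6 transcription factors of the list had higher values on both combination arrays than on both temozolomide arrays, and 5 were called. Values lay wholly higher in this way for 28.4% of all genes. ATF4 gave 12.89 and 12.98 with both drugs, against 11.03 and 10.93 with temozolomide, a rise of 1.95 ± 0.11 (3.87-fold, adjusted p = 3.86e-06, limma). ATF3, a stress-induced repressor of the same family, gave 10.48 and 10.36 with both drugs, against 6.997 and 6.67 with temozolomide, a rise of 3.58 ± 0.17. DDIT3 (CHOP, a factor that favours death under lasting stress) rose by 2.66 ± 0.15 and NUPR1, a small stress-induced chromatin protein, by 2.88 ± 0.23.

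Of 5 feedback and stress effectors, 4 were called higher. TRIB3, a pseudokinase that restrains ATF4, had 9.19 and 9.07 with both drugs, against 5.96 and 6.19 with temozolomide, an 8.30-fold rise. CHAC1, which degrades glutathione, was detected on neither temozolomide array. Of 8 enzymes of serine, one-carbon and amino acid synthesis, 6 were called higher: CTH, which makes cysteine from cystathionine, rose by 3.02 ± 0.19 and ASNS, asparagine synthetase, by 2.08 ± 0.12. PSPH, at 0.25, and SHMT2, at 0.26, missed the threshold. Of 6 amino acid transporters, 5 were called higher. SLC3A2, the shared heavy chain of the amino acid and cystine exchangers, had 11.15 and 11.45 with both drugs, against 8.86 and 9.05 with temozolomide, a rise of 2.34 ± 0.13. SLC7A1, the cationic amino acid carrier, fell by 0.49 ± 0.15 (adjusted p = 0.0361, limma). The aminoacyl-tRNA synthetases, many of which are also ATF4 targets, were mixed: 7 of 18 were higher, 2 lower and 9 not called. GARS1 (glycyl-tRNA synthetase) rose by 0.54 ± 0.10. The 7 higher became 3, 5, 3 and 3 when replicate 1 or 2 of temozolomide or replicate 1 or 2 of the combination was left out, and 2 when arrays were centred on the median of all probes.

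The promoters of this group are shown because the ATF4 binding element, TGATGNAAN, is short and can be read directly. Promoter windows of up to 300 bases, 250 before and 50 after each RefSeq gene start on GRCh38.p14, were searched on both strands. At least 1 window held the element for 8 of the 24 list genes with a window (33.3%), beside 1215 of all 27305 genes with a window (4.45%). Of the 8, 6 were called higher, SLC7A1 was lower and FGF21 was not tested, and 13 of the genes without the element were called higher too. A match is a description of letters and not a bound site. The element is in capitals in 3 of the genes that rose. In SLC3A2 and CHAC1 it lies on the other strand and is seen as its reverse complement. Other windows of ASNS and SLC3A2, not printed, held no match. The SLC3A2 match begins after the gene start, at base 37.
ASNS promoter, chr7:97872359-97872658, minus strand: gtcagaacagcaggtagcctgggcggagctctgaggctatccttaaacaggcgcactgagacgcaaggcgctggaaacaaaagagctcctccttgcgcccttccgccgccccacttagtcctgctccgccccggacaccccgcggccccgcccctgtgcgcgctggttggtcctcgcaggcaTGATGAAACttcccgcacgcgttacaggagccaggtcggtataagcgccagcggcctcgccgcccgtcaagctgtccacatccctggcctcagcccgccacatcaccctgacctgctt
SLC3A2 promoter, chr11:62881449-62881748, plus strand: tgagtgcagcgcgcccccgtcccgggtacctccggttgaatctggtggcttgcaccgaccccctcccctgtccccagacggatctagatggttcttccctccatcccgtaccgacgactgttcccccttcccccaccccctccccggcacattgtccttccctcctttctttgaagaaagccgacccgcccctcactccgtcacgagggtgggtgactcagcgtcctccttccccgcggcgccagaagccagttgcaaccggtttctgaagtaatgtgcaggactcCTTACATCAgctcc
CHAC1 promoter, chr15:40953221-40953520, plus strand: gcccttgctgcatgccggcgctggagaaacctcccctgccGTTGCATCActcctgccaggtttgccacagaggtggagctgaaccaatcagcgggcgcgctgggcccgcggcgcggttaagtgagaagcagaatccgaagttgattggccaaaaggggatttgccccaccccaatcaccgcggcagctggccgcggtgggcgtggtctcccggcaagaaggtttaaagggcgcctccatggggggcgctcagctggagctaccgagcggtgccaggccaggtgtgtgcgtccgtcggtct

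Among chaperones, those called in the cytosol were higher and most of those called in the endoplasmic reticulum lower. HSPA6, a heat shock protein that most cells make only under stress, had 10.46 and 10.40 with both drugs, against 5.94 and 5.97 with temozolomide. This was a rise of 4.48 ± 0.21 (22.3-fold, adjusted p = 3.44e-06, limma). Its other probe rose by 2.53 ± 0.21, from temozolomide values of 4.997 and 4.91 that are as low as those of undetected probes. CRYAB, a small heat shock protein, was at least 1.90-fold higher. Of the 15 cytosolic heat shock genes tested, 5 were called higher and 0 lower, and the number higher was 2 without either temozolomide array and 3 or 4 without a combination array. HSPA8, HSP90AA1 and HSPD1, chaperones present in unstressed cells, changed by -0.14, -0.06 and -0.17 and were not called. Of 18 chaperones and sensors of the endoplasmic reticulum, 7 were called lower and 1 higher, and 4 lower without any one of the 4 arrays. HSP90B1 (GRP94) fell by 0.76 ± 0.12 and HSPA5 (BiP, the chaperone that unfolded proteins induce) by 0.62 ± 0.10, while DNAJB9, a co-chaperone of BiP, rose by 0.92 ± 0.16. The HSPA6 promoter, printed for its heat shock element, holds its core GAANNTTC, in capitals, at 2 places. The core reads the same on both strands. It was found for 11 of the 15 list genes with a window (73.3%), beside 8.21% of all genes, and of the 11, 3 were called higher, 7 were not called and 1 was not tested.
HSPA6 promoter, chr1:161524290-161524589, plus strand: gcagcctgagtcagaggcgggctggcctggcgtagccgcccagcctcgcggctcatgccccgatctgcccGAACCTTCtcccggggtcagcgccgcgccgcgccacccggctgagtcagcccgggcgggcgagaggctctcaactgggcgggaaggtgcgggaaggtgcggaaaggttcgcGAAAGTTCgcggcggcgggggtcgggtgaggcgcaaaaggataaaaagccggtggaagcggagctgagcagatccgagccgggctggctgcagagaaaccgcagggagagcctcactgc

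Genes of oxidative and metal stress rose in part. Of 20 targets of NRF2, the factor that electrophiles release, 7 were called higher and 0 lower. SRXN1 (sulfiredoxin) had 9.86 and 9.83 with both drugs, against 8.65 and 8.66 with temozolomide, a rise of 1.18 ± 0.11, and TXNRD1 (thioredoxin reductase) rose by 1.42 ± 0.12. HMOX1, heme oxygenase, gave 12.10 and 12.26 with both drugs, against 11.78 and 11.90 with temozolomide, groups that did not overlap but whose difference of 0.34 ± 0.12 missed the threshold (adjusted p = 0.066, limma). Of 9 genes of metal binding and zinc export, 5 were higher and 0 lower. MT1M, a metallothionein, rose by 1.61 ± 0.20 and SLC30A1, the zinc exporter, by 0.69 ± 0.13; metallothionein probes can share signal. Of 19 autophagy and lysosome genes, 6 were higher, led by GABARAPL1 at 1.76 ± 0.13 and MAP1LC3B at 1.33 ± 0.12, both coats of the growing autophagosome; without 1 array the number was 3 or 4.

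**Figure D3:**
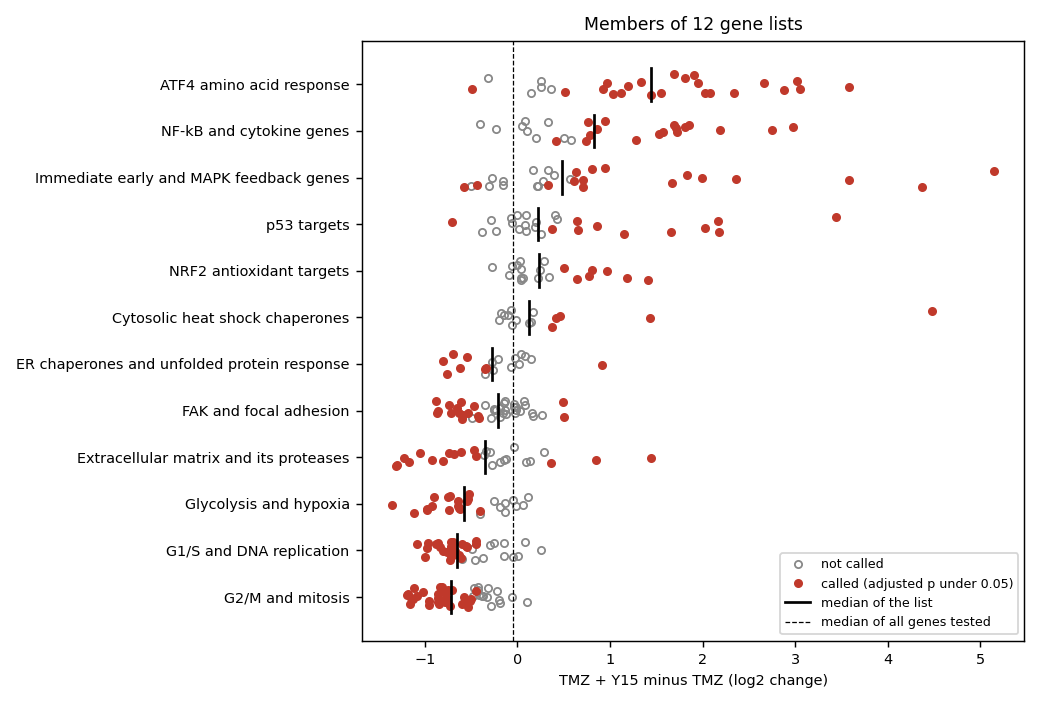
Log2 change, temozolomide plus Y15 minus temozolomide (horizontal axis), of each tested member of 12 gene lists (rows). Filled red points passed an adjusted p of 0.05, black bars are list medians and the dashed line is the median of all genes; the ATF4 list has its median at 1.45 and the mitotic list at -0.72.

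Inflammatory genes were mostly higher. Of 26 NF-κB and cytokine genes, 17 were called higher and 0 lower, with a median of 0.82. Among the 12 cytokines, chemokines and the prostaglandin enzyme, 11 were called higher with a median of 1.61. CXCL8, a neutrophil chemokine, had 13.66 and 13.68 with both drugs, against 12.01 and 11.71 with temozolomide, a rise of 1.81 ± 0.13. PTGS2 (cyclooxygenase 2) had 11.31 on both combination arrays, against 8.54 and 8.59 with temozolomide, a rise of 2.75 ± 0.18 (6.71-fold, adjusted p = 9.88e-06, limma). CSF3, a granulocyte growth factor, rose by 1.85 ± 0.13, CXCL2 by 2.98 ± 0.22 and IL6 by 1.71 ± 0.19. Of the NF-κB subunits RELB rose by 1.73, and NFKB1 and RELA, at 0.05 and 0.11, were not called. NFKBIZ and TNFAIP3, a co-factor and an inhibitor of the pathway, rose by 2.19 ± 0.13 and 1.58. Of 23 interferon-stimulated genes 3 were higher and 0 lower, with a median of -0.00032, so the rise did not extend across that list; without 1 array 1 or 2 were higher. CD14, a microglial marker that is also a receptor of this pathway, rose by 1.35 ± 0.26. Its part in the result was not tested.

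Immediate early genes and feedback inhibitors of MAP kinase signalling were higher in part. Of 28 tested, 14 were higher and 2 lower, with a median of 0.49, and 10 were higher and 3 lower when arrays were centred on the median of all probes. Among 11 early transcription factors other than FOS and JUN, 7 were higher and 0 lower: KLF4 had 8.29 and 8.03 with both drugs, against 5.90 and 5.69 with temozolomide, and EGR1 rose by 1.99 ± 0.17. MYC, a driver of growth and ribosome synthesis, rose by 0.81 ± 0.14 (1.75-fold, adjusted p = 0.00288, limma). Among the 7 FOS and JUN genes, 4 were higher, and FOSL1, which sustained MAP kinase activity maintains, fell by 0.58 ± 0.13. Among 10 feedback inhibitors 3 were higher and 1 lower; the ERK phosphatase DUSP5 rose by 1.67 ± 0.12.

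Genes of DNA replication and mitosis fell together. Of 38 genes of the G1/S transition and replication, 26 were called lower and 0 higher, with a median of -0.65, and of 46 mitotic genes 31 were lower and 0 higher, with a median of -0.72. FEN1, the flap nuclease of lagging-strand synthesis, had 10.48 and 10.33 with both drugs, against 11.45 and 11.36 with temozolomide, and fell by 0.999 ± 0.11 (adjusted p = 0.000253, limma). POLA1, the primase-bound polymerase, fell by 0.98 ± 0.13, MCM4 of the replicative helicase by 0.83 ± 0.12 and RRM2, the small subunit of ribonucleotide reductase, by 1.08 ± 0.15. All 14 genes of kinesins, spindle and cytokinesis were lower and passed the test, as did the 4 tested of chromosome structure, while of 18 cyclins, kinases and regulators 7 did. TOP2A (topoisomerase IIα) had 10.45 and 10.28 with both drugs, against 11.60 and 11.51 with temozolomide, and fell by 1.19 ± 0.13. SMC2, a condensin subunit, fell by 1.18 ± 0.12, ASPM, a spindle pole protein, by 1.12 ± 0.11 and CENPE, a kinetochore motor, by 1.15 ± 0.13. CDK1, CCNB1 and PLK1, the kinases and cyclin of mitotic entry, changed by -0.22, -0.37 and -0.48 and were not called.

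The falls were of modest size: the lowest member of either list changed by -1.19. Of 19 genes of homologous recombination, the Fanconi pathway and checkpoint kinases, 9 were lower and 1 higher, and 5 lower without replicate 2 of the combination. FANCI fell by 1.15 ± 0.16 and BARD1, the partner of BRCA1, by 1.09 ± 0.15. Of 14 genes that repair temozolomide lesions 3 were lower and 1 higher, and 2 or 3 lower without 1 array. Over all genes 14.5% were lower and 10.9% higher, and the list median was -0.06 against -0.05 over all genes. PARP1, the sensor of DNA strand breaks, had 10.23 and 10.13 with both drugs, against 11.10 and 10.89 with temozolomide, and fell by 0.82 ± 0.15 (adjusted p = 0.0037, limma). Of 31 replication-dependent histone genes on the array 14 entered the test. Of these, 3 were detected on no temozolomide array and 1 on no combination array, so their count is not one over all histone genes. Of 14 replication-dependent histone genes 8 were higher and 1 lower, with a median of 0.68, and H2AC18 rose by 1.28 ± 0.17; histone copies can share signal, and the number higher was 4 or 5 without 1 array.

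The promoters of ASPM and TOP2A are shown for the CHR element TTTGAA, the core that the DREAM and MYB-MuvB complexes read in mitotic genes. It was found on either strand for 29 of the 41 list genes with a window (70.7%), beside 18.2% of all genes; 20 of the 29 were called lower and 9 were not called, and 6 of the genes without it were lower too. This element and the heat shock element were searched after the values had been seen.
ASPM promoter, chr1:197146620-197146919, minus strand: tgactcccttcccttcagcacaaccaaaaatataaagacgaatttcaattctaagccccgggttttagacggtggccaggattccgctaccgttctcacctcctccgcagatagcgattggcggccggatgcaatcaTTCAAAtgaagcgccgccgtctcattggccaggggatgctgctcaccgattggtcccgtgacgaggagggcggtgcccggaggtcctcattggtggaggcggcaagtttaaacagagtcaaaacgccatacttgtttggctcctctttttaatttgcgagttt
TOP2A promoter, chr17:40417847-40418146, minus strand: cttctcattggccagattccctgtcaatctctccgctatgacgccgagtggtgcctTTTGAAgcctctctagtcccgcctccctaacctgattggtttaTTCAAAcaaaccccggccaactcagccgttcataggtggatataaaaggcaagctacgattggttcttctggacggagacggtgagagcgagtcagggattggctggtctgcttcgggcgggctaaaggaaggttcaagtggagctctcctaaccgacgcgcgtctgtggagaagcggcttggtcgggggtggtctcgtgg

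p53 targets gave a divided picture in which CDKN1A, the p21 inhibitor of cyclin-dependent kinases, stood apart. Of 26 targets, 10 were called higher and 1 lower, with a median of 0.23. GDF15, a secreted stress factor that ATF4 also activates, had 12.14 and 12.19 with both drugs, against 8.62 and 8.82 with temozolomide, a rise of 3.44 ± 0.12 (10.9-fold, adjusted p = 3.15e-07, limma). GADD45A rose by 2.16 ± 0.13, PMAIP1 (NOXA, a trigger of apoptosis) by 2.18 ± 0.16 and PLK2 by 1.66 ± 0.16. CDKN1A had 12.29 and 12.37 with both drugs, against 12.23 and 12.23 with temozolomide. The groups did not overlap, but the difference of 0.09 ± 0.10 was within the replicate error (95% interval -0.13 to 0.32, adjusted p = 0.542, limma), and over 16 alternative settings it lay between 0.05 and 0.26. MDM2, the p53 ubiquitin ligase, overlapped between groups at 0.41 ± 0.23. DDB2 and RRM2B, further p53 targets, changed by 0.00 and 0.02, and FAS was detected on none of the 4 arrays. POLH, a translesion polymerase, fell by 0.71 ± 0.14. Of 19 BCL2 family and death receptor genes 4 were higher and 1 lower, beside 10.9% and 14.5% of all genes. Of the 4, TNFRSF10B, BAX and BCL2L2 missed the threshold with some array left out. They also missed it when arrays were centred on the median of all probes.

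The FAK gene itself was lower, as were 14 of 40 genes of FAK and focal adhesion. PTK2 had 10.40 and 10.26 with both drugs, against 11.04 and 10.92 with temozolomide, and fell by 0.65 ± 0.12 (1.57-fold lower, adjusted p = 0.00422, limma). Its other kept probe changed by -0.56 ± 0.24 and was not called. PTK2B, which encodes the related kinase PYK2, had 5.64 and 5.50 with both drugs, against 5.41 and 5.79 with temozolomide, and the groups overlapped. Of 40 FAK and focal adhesion genes 14 were lower and 2 higher, beside 14.5% and 10.9% of all genes. The number lower was 9 and 8 without replicates 1 and 2 of temozolomide and 8 and 5 without replicates 1 and 2 of the combination. Among 8 integrins, the receptors for matrix, 6 were called lower. The other 2 had lower values on both combination arrays than on both temozolomide arrays, as did 37.6% of all genes. ITGB5 fell by 0.63 ± 0.11, ITGA3 by 0.87 ± 0.16 and ITGA2 by 0.88 ± 0.18. Among 15 structural adaptors 6 were lower: CAV1, the coat of caveolae, by 0.86 ± 0.10, and VCL (vinculin), which ties integrins to actin, by 0.71 ± 0.12. Among 17 FAK family members and signalling partners 2 were lower and 2 higher. ROCK2, one of the 2 higher at 0.49, had another kept probe at -0.51 that was not called.

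Matrix genes were lower as well. Of 17 matrix proteins 11 were lower and 0 higher, with a median of -0.69. COL1A2 had 9.88 and 9.81 with both drugs, against 11.12 and 11.18 with temozolomide, and fell by 1.31 ± 0.15 (2.48-fold lower, adjusted p = 0.000252, limma). COL1A1, the other chain of type I collagen, fell by 1.17 ± 0.15, COL5A1 by 1.05 ± 0.13 and FBN1 (fibrillin 1) by 1.22 ± 0.15. COL4A1 and COL4A2, basement membrane collagens, were at 0.09 and 0.29 and were not called. Among 9 proteases and inhibitors 3 were higher and 1 lower, and MMP1, an interstitial collagenase, rose by 1.45 ± 0.22; with 1 array left out, 1 or 2 of the matrix and protease genes together were higher and 9 or 10 lower. Of 20 genes of actin and of SRF and YAP-TEAD signalling 4 were higher and 6 lower: the matricellular genes CCN1 and CCN2 rose by 1.10 ± 0.13 and 1.09 ± 0.14, and AXL, a receptor kinase, fell by 0.89 ± 0.13. Without replicate 1 or 2 of temozolomide 2 were higher and 2 or 4 lower, and without replicate 1 or 2 of the combination 2 or 3 were higher and 3 or 2 lower. PDGFRB and TEK, listed as markers of pericytes and endothelium, were lower at -0.67 and -1.14; their part in the result was not tested.

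Many glycolytic and hypoxia-responsive genes were lower. Of 26 tested 17 were lower and 0 higher, with a median of -0.58; the number lower was 9 without replicate 1 of temozolomide and 9 without replicate 2 of the combination. PFKFB4, which makes an activator of phosphofructokinase, had 9.64 and 9.67 with both drugs, against 11.05 and 10.97 with temozolomide, and fell by 1.35 ± 0.19. ALDOA (aldolase) fell by 1.11 ± 0.16, PGAM1 by 0.90 ± 0.15 and ENO2 by 0.74 ± 0.11. GAPDH, PGK1 and ENO1 of the same pathway were at -0.01, -0.19 and -0.05 and were not called. Of 26 nuclear-encoded respiratory chain genes 2 were lower and 0 higher, of 26 proteasome genes 2 were lower and 0 higher, and of 26 genes of cholesterol and fatty acid synthesis 3 were higher and 2 lower. With 1 array left out, 0 or 1 respiratory chain genes were lower and 0 or 1 higher, 1 or 2 proteasome genes were lower, and 1 or 2 lipid synthesis genes were higher and 1 or 2 lower.

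The 12 largest falls came from genes of varied function. D2HGDH, which oxidises D-2-hydroxyglutarate, had 5.74 and 5.70 with both drugs, against 7.61 and 7.68 with temozolomide, and fell by 1.92 ± 0.40 (3.79-fold lower, adjusted p = 0.00685, limma). DEPP1, a FOXO-regulated gene, had 7.15 and 7.31 with both drugs, against 9.14 and 8.79 with temozolomide, and fell by 1.73 ± 0.18. ZNF395 fell by 1.67 ± 0.19, PRR11 by 1.53 ± 0.15, LNPK (a shaper of endoplasmic reticulum junctions) by 1.51 ± 0.23 and TENM4 by 1.42 ± 0.16. ZHX3, APLN (the peptide hormone apelin), SLC1A1 (a glutamate and cysteine transporter) and KIAA1549L fell by 1.41, 1.40, 1.39 and 1.37. NOMO3 and EIF3CL, members of near-identical gene copies, fell by 1.54 ± 0.35 and 1.53 ± 0.44. NOMO3 had an adjusted p of 0.0906 without replicate 1 of temozolomide and 0.0829 without replicate 2 of the combination. EIF3CL had an adjusted p of 0.215 without replicate 1 of temozolomide, 0.0721 and 0.153 without replicates 1 and 2 of the combination, and 0.0585 with no filter on dim probes.

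The response to Y15 on top of temozolomide resembled the response to Y15 in cells without temozolomide, measured on 4 other arrays. The Y15 arrays without temozolomide detected fewer probes, 14437 and 15169, against 16431 and 15981 in untreated cells. The SD of their replicate difference was 0.277, against 0.23 for the combination and 0.245 for temozolomide. What this does to the differences with and without temozolomide given below was not tested. Y15 against untreated cells called 2507 genes (21.9%), 982 higher (8.6%) and 1525 lower (13.4%). Of these, 1697 were called in both comparisons, which is 58.6% of the genes called with temozolomide and 67.7% of those called without it: 707 were higher in both, 986 lower in both and 4 opposite. Across genes, which are not independent, the 2 changes correlated at Pearson's r = 0.811 and Spearman's rho = 0.717. Of the 459 genes changed by at least 2-fold with temozolomide, 457 had the same sign without it. Without temozolomide Y15 raised 20 and lowered 0 of the 27 ATF4 genes, raised 17 of the 26 NF-κB genes and lowered 31 of the 46 mitotic genes, and it lowered 9 of the 26 glycolytic genes, beside 17 with temozolomide; the difference between those counts was not tested.

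**Figure D4:**
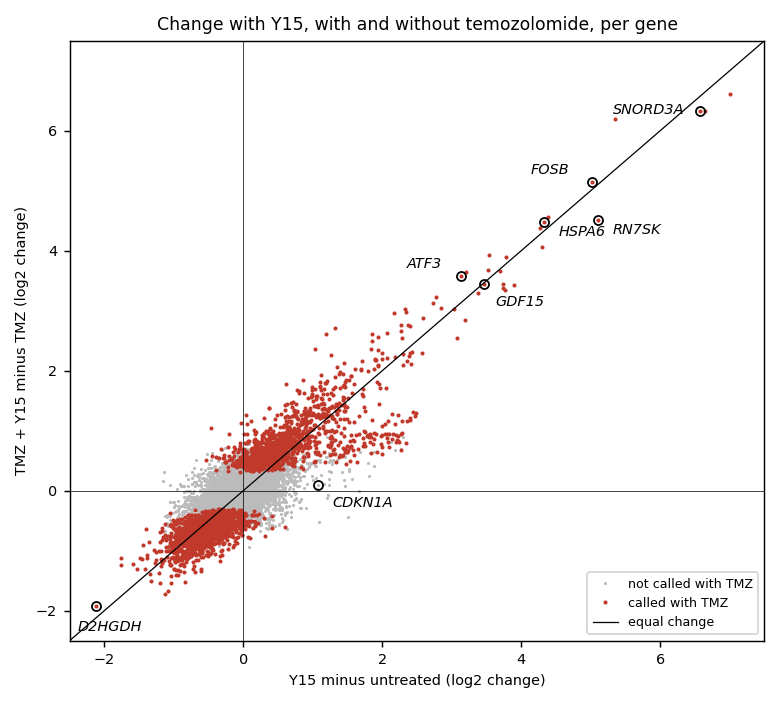
Log2 change of each of 11423 genes with Y15 added to temozolomide (vertical axis) and with Y15 against untreated cells (horizontal axis). Red genes were called with temozolomide and the black line marks equal change; most large changes lie along it, and CDKN1A lies below it at 0.09 with and 1.07 without temozolomide.

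The test of whether the Y15 change differed with and without temozolomide called 0 genes (limma, smallest adjusted p = 0.0639), with 954 genes at an unadjusted p under 0.05, where 571 would be expected. This does not show that the changes were equal. The 95% interval of the difference had a median half-width of 0.48, and for 272 of the 459 genes changed at least 2-fold it lay within 2-fold either way. CDKN1A was among the 7 genes with the smallest adjusted p. Its levels were 12.29 and 12.37 with both drugs, 12.23 and 12.23 with temozolomide, 12.38 and 12.39 with Y15, and 11.32 and 11.30 in untreated cells. The 3 treated groups were thus close together and untreated cells about 1 log2 unit below. Y15 changed CDKN1A by 0.09 ± 0.10 with temozolomide and by 1.07 ± 0.10 without it, a difference of -0.98 ± 0.14 (95% interval -1.29 to -0.66, adjusted p = 0.0639, limma). That difference passed the threshold with the deposited log2 values (adjusted p = 0.00123), with an offset of 50 (0.0127), with no background correction (0.00149) and with array weights (0.0184), and ranged from -1.02 to -0.56 with adjusted p from 0.00123 to 0.385 over 20 settings. A dimmer CDKN1A probe changed by 0.44 ± 0.23 with temozolomide and 0.85 ± 0.23 without.

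The same difference was read for genes of the lists above. GDF15 rose by 3.44 ± 0.12 with temozolomide and 3.47 ± 0.12 without, a difference of -0.03 with a 95% interval from -0.40 to 0.34, and TOP2A fell by 1.19 and 1.17. ATF4 rose by 1.95 ± 0.11 with temozolomide and 1.43 ± 0.11 without, a difference of 0.52 ± 0.15 that missed the threshold (adjusted p = 0.363, limma). COL1A1 fell by 1.17 ± 0.15 with temozolomide and changed by -0.34 ± 0.15 without it; the difference of -0.83 ± 0.21 had an adjusted p of 0.279, and of 0.0332 to 0.678 over 20 settings. SLC7A11, the cystine carrier, was detected on both combination arrays and on no other U87 array; it was at least 1.13-fold higher with both drugs than with temozolomide, and its difference is not given.

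**Figure D5:**
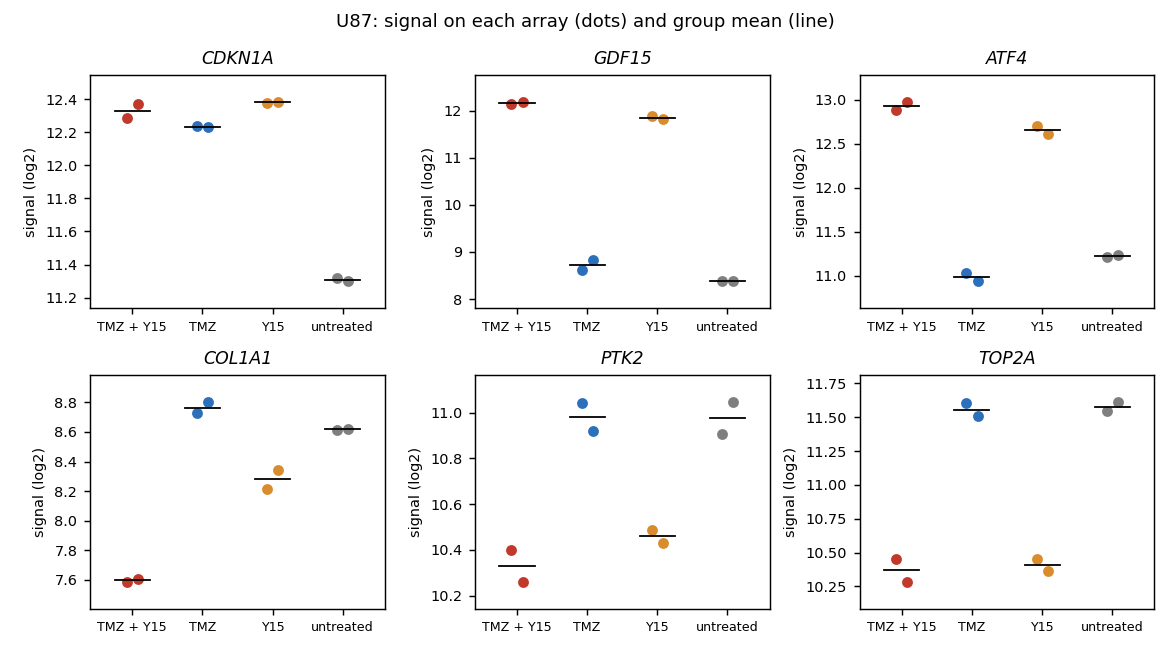
Normalised log2 signal (vertical axes, each with its own range) of 6 genes on the 2 arrays of each U87 group, with group means as lines. CDKN1A is high in the 3 treated groups, whereas GDF15 and ATF4 are high, and PTK2 and TOP2A low, in both groups that received Y15.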

How the data were processed

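Per the labels, RNA was hybridised to single-colour Illumina bead arrays; GenomeStudio appears in the submitters' processing notes without a version. The deposited intensity values are signals per probe, not normalized between arrays, and per the file headers each has a detection p-value against negative control beads. A further deposited table has the log2 values of the authors, used as an alternative; its normalization is not given in the sources used. Of 0 columns was the sample unknown.

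In limma 3.58.1 (R 4.3.3), background was corrected by normexp from the detection p-values, an offset of 16 added, and arrays quantile normalized on the log2 scale; the offset understates changes of dim probes. Probes with a detection p-value under 0.01 on at least 2 of the 12 arrays were kept (19354; 4101 had no single gene symbol). For 3061 genes with several probes the one with the highest mean was used. In 11 called genes a second probe was called with the opposite sign. Levels of different probes were not compared.

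The 6 group means of all 12 arrays were fitted with lmFit and eBayes (6 residual degrees of freedom), two-sided, with Benjamini-Hochberg adjustment over 11423 genes. Called means an adjusted p under 0.05; intervals are 95%. The fit was tested on simulated data. A probe undetected on both arrays of a group gives a bounded fold, set against its own value there or, if higher, the dimmest detected signal of that array.

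The comparison, members and lists were chosen with earlier results of these data known. The rule for named genes takes the 12 largest called rises and falls with groups that do not overlap, for each list with at least 3 called members the 4 of smallest p, and PTK2, PTK2B, CDKN1A, MDM2, GDF15, MGMT, HMOX1, DDIT3, ATF3, HSPA6, MYC, FOS, FOSB, RN7SK and GAPDH. Some list members were left unprinted, and others named as examples, after values were seen. Replicate numbers were not used to pair the arrays in the fit reported. Promoter sequences are RefSeq's.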

Additional observations from a re-analysis of the deposited data

How the results depend on the processing

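With Y15 added to temozolomide, no change of the 127 called named genes reversed in the settings run; PTK2B and GAPDH, not called, ran from -0.22 to 0.16 and from -0.07 to 0.11. Of the 127, 100 kept the call in every setting and 24 lost it with some array left out, where fewer samples were fitted. With 1 array left out, added Y15 called 1268 to 1683 genes, Y15 alone 1154 to 1516, and their difference 0 to 21, the 21 without replicate 2 of Y15 alone. Added Y15 called between 2555 genes (no filter on dim probes) and 3895 probes (all kept probes). Centring on the median of all probes, chosen after seeing the data, moved the median of all genes to -0.17 with and -0.60 without temozolomide, called 2914 genes with 24.8% higher (42.9% in the fit reported), and for Y15 alone 7401 with 5.57% higher (39.2% reported); centring on kept probes gave Y15 alone 54.7% higher. The difference with and without temozolomide called 57 genes with the deposited log2 values, 58 with no background correction, 6 with an offset of 50, 12 with array weights and 2 centred on all probes; the cause was not tested. The sample titles do not say whether same-numbered arrays belong together. Deviations of same-numbered arrays correlated at 0.086 between the groups compared, which cannot show whether they were processed together. With the replicate block, added Y15 called 2962 genes and the difference 0. Dim probes near background carry bounds rather than levels, and 2 arrays per group limit the precision.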

Other observations

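A group of genes off the line of equal change was picked after the values were seen, so no test is given. It holds the 72 genes that differed by at least 1.5 on the log2 scale with Y15 against untreated cells and by less than 1 with Y15 added to temozolomide. With temozolomide their changes ranged from -0.43 to 0.99 with a median of 0.80, and without it from 1.51 to 2.34 with a median of 1.83. TMEM106A, a membrane protein gene, had 7.07 and 7.16 with both drugs, a mean of 6.32 with temozolomide, 8.83 and 8.22 with Y15 and a mean of 6.18 in untreated cells. Of the 72, 60 are protein-coding and 7 carry zinc finger (ZNF) symbols. For 30 of them the arrays held another kept probe, 36 in all, and those probes changed by a median of -0.05 with temozolomide and -0.08 without, so most of the other probes of these genes did not share the change; exceptions were a probe each of BLZF1, MEG3 and PNPT1, at 1.07, 1.72 and 0.84 with temozolomide and 2.05, 2.01 and 1.81 without. FKBP14, HNRNPU, MCM8 and PDE4C of this group had another probe called lower with both drugs while the chosen probe was higher. In DBTRG cells Y15 changed the chosen probes by a median of 0.22. Of the 57 genes for which the difference with and without temozolomide was called with the deposited log2 values, 40 were in this group. The group was picked by that same difference on the same arrays, so the overlap follows from the choice and lends no support. Probe sequences were not used here.

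Among probes with no single gene symbol, 461 of 4101 were called higher and 216 lower with Y15 added to temozolomide. Clk family splicing kinase CLK1 rose by 1.40 ± 0.23 (adjusted p = 0.00202, limma), with 9.53 and 9.79 with both drugs, against 8.22 and 8.30 with temozolomide, while of 14 SR splicing factors and CLK kinases 2 were higher and 1 lower (1 or 2 higher and 0 lower without 1 array). Over all genes 10.9% were higher and 14.5% lower. UBTF, the RNA polymerase I factor that opens ribosomal DNA, fell by 0.81 ± 0.15 while of 22 MYC and ribosome biogenesis genes 5 were higher and 1 lower. The 5 became 2 or 3 with 1 array left out, and 1 was higher and 2 lower when arrays were centred on the median of all probes. OLIG2, a transcription factor of glial progenitors, gave 6.89 on both combination arrays, against 5.63 and 5.57 with temozolomide, a rise of 1.29 ± 0.14 (adjusted p = 0.000184, limma). The astrocyte and glioma marker list did not rise as a whole. Of its 7 tested members 2 were called higher and 1 lower, with a median of -0.35. CHI3L1 rose by 0.78 and CD44 fell by 0.35, calls that were lost in some settings. SOX2, at -0.49, was not called.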
